A study of Canis lupus familiaris with 30 samples.

Results

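Among 30 canine thyroid carcinomas profiled by RNA sequencing, 8 follicular thyroid carcinomas (FTC) carried a named variant in a gene of mitogen-activated protein kinase (MAPK) signaling, and these were compared with 16 FTC for which no such variant was named. The carriers were TC1744 and TC2011 with *ERBB2* variants, TC1218 with an *ARAF* variant, TC22 with an *NF1* variant, TC1123 with a premature stop in *TNFRSF1A*, TC67 and TC1979 with variants in calcium channel subunit genes, and TC1241, whose variant is not reported here. Membership came from the tumor names that the study lists with its variants. In the same passage the study reports relatively high MAPK pathway scores for most of those variants, from expression in the same libraries. The groups were therefore chosen with that pattern known. A 25th FTC, TC1088, with an *FGFR2* fusion, was kept out of the comparison and added only as a check. Each tumor came from 1 client-owned dog and was a frozen piece of bulk tissue, and the labels give no batch and no sequencing date. The 8 carriers share no single lesion, some variants were read from the same RNA libraries, and a tumor without a named variant was not shown to be wild type. Bulk RNA cannot separate fewer cells of a type from less RNA per cell.

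In the RAS-RAF-ERK branch of MAPK signaling, growth factor receptors such as *ERBB2* load RAS with GTP, RAS recruits RAF kinases such as *ARAF*, and MEK and ERK follow. *NF1* returns RAS to its inactive form. Active ERK induces its own brakes, the Sprouty proteins (*SPRY2*, *SPRY4*) and the dual specificity phosphatases (*DUSP4*, *DUSP6*), along with the transcription factors *ETV4* and *ETV5* and the cell cycle gene *CCND1*. Transcripts of these genes are therefore read as output of the pathway, and the pathway is often activated in human thyroid carcinoma.

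The deposited gene counts totalled 23.2 M to 36.5 M in the carriers and 12.3 M to 45.1 M in the other FTC, where M stands for mega. The size factors, which scale for depth, ran from 0.995 to 1.62 in the carriers and from 0.279 to 1.41 in the others, the lowest in TC538. In TC538, 28 genes lay 10-fold above every other tumor of the comparison, against 13 such genes in TC1241. Thyroid follicular cell markers (*TG*, *TSHR* and *PAX8*) were present in all 24 tumors, with summed normalized counts of 28224 to 1035500 in the carriers and 25580 to 6643190 in the others. TC2288, without a named variant, also held 28525 normalized counts of the parathyroid hormone gene *PTH*, against at most 14.8 in any carrier. The histologic pattern was follicular in 3 carriers, follicular-compact in 4 and compact in 1 (TC22), and follicular in 7 and follicular-compact in 9 of the others.

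*SPRY4* (ENSCAFG00000006250), a feedback inhibitor of receptor-driven ERK signaling, was the output gene that separated the groups most clearly. Its normalized count, the count divided by a size factor that equalizes library depth, had a lowest, median and highest value of 357, 579 and 767 in the 8 carriers and of 71.7, 189 and 548 in the 16 others. All 8 carriers lay above the median of the others, and TC1213 was the single tumor without a named variant that passed the lowest carrier, TC1744. On the level scale, log2(normalized count + 1), the means were 9.09 ± 0.43 (SD, n = 8) and 7.60 ± 0.74 (SD, n = 16), a difference of 1.496 (two-sided exact permutation test over 735471 splits, p = 4.35e-05). The study had already reported relatively high MAPK scores for most of these variants, and *SPRY4*, *DUSP6* and *ETV5* are among the score's genes. Their permutation p-values therefore describe a reported pattern and are no independent evidence for it. In the fit over all 18009 genes that reached 10 counts in 5 or more of the 24 tumors, the log2 fold change was 1.36 (standard error 0.28) with an adjusted p of 0.0552 in edgeR's quasi-likelihood test, just short of the threshold of 0.05, while DESeq2 gave an adjusted p of 0.00332. The adjusted p ranged from 0.00332 to 0.309 over 35 alternatives, and without TC1213 it was 0.00925. In edgeR it stayed above 0.05 without TC1241 and with histologic pattern, differentiation or endothelial marker level as a covariate.

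*DUSP6* (ENSCAFG00000006100), the phosphatase that removes phosphate from ERK in the cytoplasm, had normalized counts of 665, 1393 and 5638 (lowest, median and highest) in the carriers and 371, 672 and 1941 in the others. The highest carrier was TC1241, which was the only one of the 8 above every other tumor of the comparison. The level differed by 1.03 (two-sided exact permutation p = 0.00447), and leaving out 1 tumor at a time gave p from 0.00111 to 0.0191. In edgeR the log2 fold change was 1.20 (standard error 0.33, adjusted p = 0.179) and it was 0.68 without TC1241.

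*ETV5* (ENSCAFG00000013420), an ETS transcription factor downstream of ERK, ranged from 239 to 1191 normalized counts with a median of 748 in the carriers and from 137 to 1273 with a median of 563 in the others. The groups overlapped along almost their whole range, and 4 of 8 carriers lay above the median of the others. The level differed by 0.59 (two-sided exact permutation p = 0.191), and the edgeR log2 fold change was 0.43 (standard error 0.38).

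**Figure D1:**
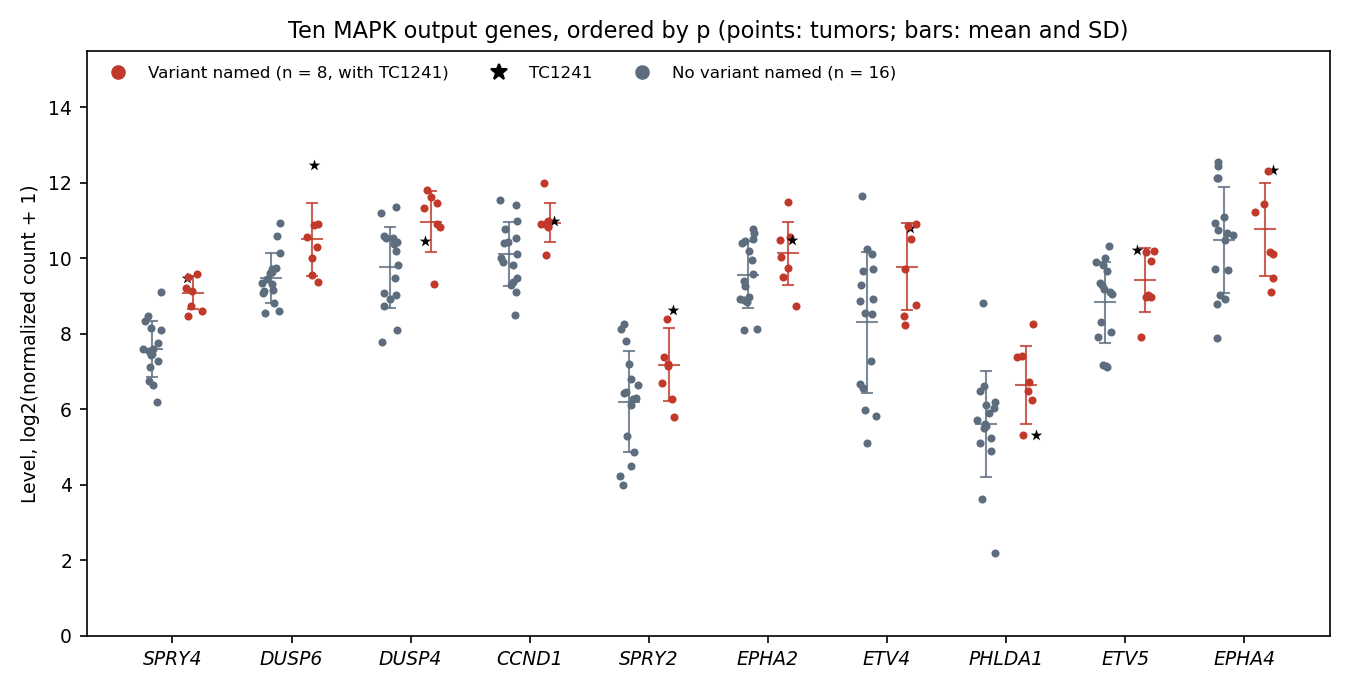
Levels of 10 MAPK output genes, log2(normalized count + 1) on the vertical axis, in 8 FTC with a named variant (red, TC1241 as a black star) and 16 without (grey); points are tumors and bars are mean and SD. *SPRY4* shows the least overlap, and TC1241 stands above every other tumor in *DUSP6*.

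None of the 10 output genes was called at an adjusted p below 0.05, in a fit that called 0.0666% of all genes higher and 0% lower. All 10 had positive log2 fold changes, with a median of 0.72 beside a median of -0.04 over all genes tested, and 47.4% of all genes were positive. At an unadjusted p below 0.05 in edgeR, 4 of the 10 were higher (*SPRY4*, *DUSP6*, *DUSP4* and *CCND1*) against 6.21% of all genes. *DUSP4*, a nuclear ERK phosphatase, had normalized counts of 639, 2252 and 3591 in the carriers and 219, 1029 and 2613 in the others, with 7 of 8 carriers above the median of the others (log2 fold change 1.05, standard error 0.37). *CCND1*, the cyclin that starts the passage from G1 to S phase, had 1082, 1926 and 4104 against 362, 1069 and 2985, and all 8 carriers lay above the median of the others (log2 fold change 0.67, standard error 0.31).

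The other 6 output genes overlapped widely. The log2 fold changes were 0.82 for *ETV4*, 0.75 for *SPRY2*, 0.68 for *PHLDA1*, 0.51 for the ephrin receptor *EPHA2*, 0.43 for *ETV5* and 0.13 for *EPHA4*, with standard errors from 0.35 to 0.61. *EPHA4* changed sign with TC1088 added, without TC1241 and with 5 carriers.

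The MAPK Pathway Activation Score (MPAS), the sum of the z-scores of these 10 genes over the 24 tumors divided by the square root of 10, gives 1 value per tumor and is given as a description. It had a mean of 1.80 ± 1.56 (SD, n = 8) in the carriers and -0.90 ± 1.85 (SD, n = 16) in the others. The 4 highest scores were carriers, TC1979 at 3.62, TC1241 at 3.46, TC1123 at 2.75 and TC1744 at 2.32. Of these, TC1979 has a calcium channel variant and TC1123 the *TNFRSF1A* variant, and TC1744 an *ERBB2* variant. TC67 followed at 1.94, TC2011 at 0.76 and TC22 at 0.32, and TC1218, with the *ARAF* variant, was at -0.76 and ranked 17 of 24. Among tumors without a named variant TC815 reached 2.17 and TC1213 1.07, and 5 of the 16 were above the median of the 24 against 7 of the 8 carriers. The lowest score, -4.02, belonged to TC538, the library with the small size factor.

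**Figure D2:**
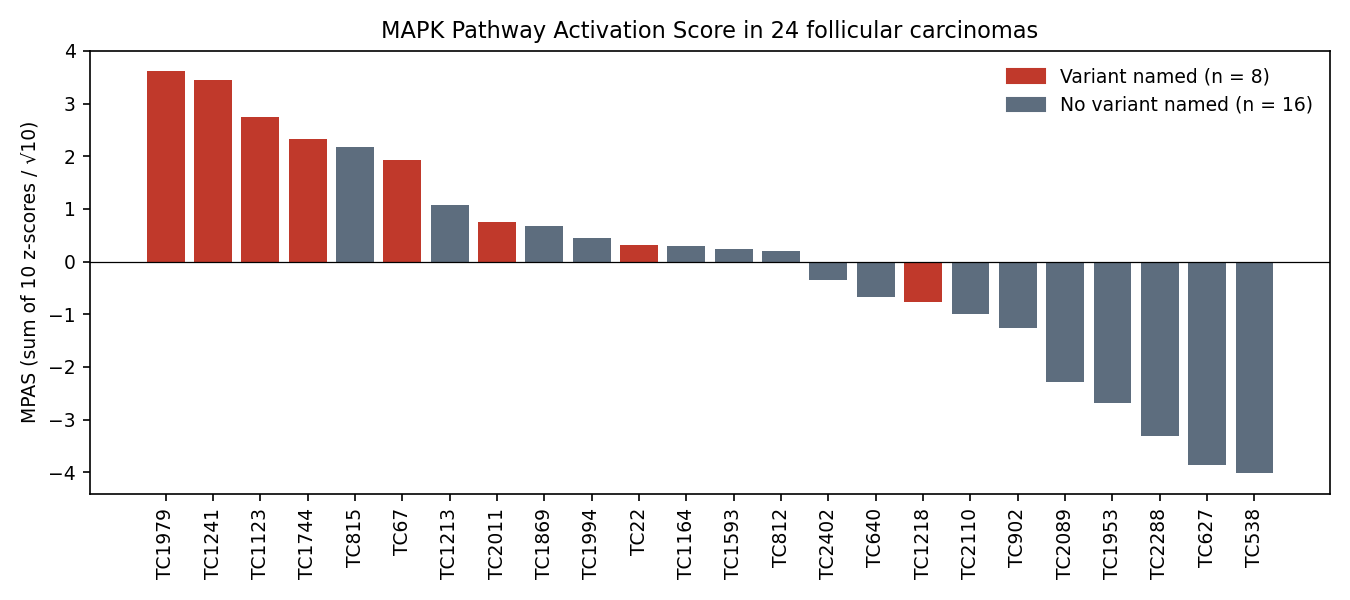
MPAS (sum of 10 z-scores divided by the square root of 10) in 24 FTC in falling order, carriers in red and tumors without a named variant in grey. Carriers hold ranks 1 to 4 and the lowest carrier, TC1218, ranks 17.

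The difference in the 3 marker levels was also taken within strata of the tumors, given without a test because the strata are small. Between 3 carriers and 7 others of follicular pattern the difference in mean level was 0.91 for *SPRY4* and 1.13 for *DUSP6*, and between the 5 carriers and 9 others of another pattern it was 1.89 and 0.96. In moderately differentiated tumors (6 carriers, 8 others) it was 1.73 for *SPRY4* and 0.80 for *DUSP6*, and in well differentiated tumors (2 carriers, 8 others) 0.89 and 1.20. With 5 of the carriers (TC1241, TC1744, TC2011, TC1218 and TC22) against the 16 others, the level differed by 1.47 for *SPRY4* (two-sided exact permutation p = 0.000344), 0.91 for *DUSP6* (exact p = 0.0389) and 0.42 for *ETV5* (exact p = 0.449).

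The further brakes of ERK signaling, 13 tested genes outside the MPAS, had a median log2 fold change of 0.60, and of 0.41 without TC1241. At an unadjusted p below 0.05, 6 of them were higher and 0 lower, where 6.21% of all genes were higher and 9.14% lower. None was called at an adjusted p below 0.05. *LRIG1*, a transmembrane protein that promotes loss of ERBB receptors, had a median of 3393 normalized counts in the carriers and 2027 in the others (log2 fold change 0.69, standard error 0.21), and all 8 carriers lay above the median of the others. *DUSP14*, *DUSP5*, *DUSP1*, *SPRED2* and *SPRY1* made up the rest, between 0.60 and 0.92. Of the 24 tumors, TC1241 was the highest for *DUSP5* and *SPRED2*, TC1979 for *DUSP1* and *SPRY1*, and TC67 for *DUSP14*. Among 19 immediate early genes, which are transcribed within minutes of ERK activation, 18 had positive log2 fold changes with a median of 0.44, and *EGR3* alone was higher at an unadjusted p below 0.05, near the share over all genes. Its value rested on TC1241, with 493 normalized counts against a carrier median of 24.7, and the log2 fold change of 2.05 was 0.41 without that tumor. *EGR1* had 0.90 (standard error 0.51), and 0.41 without TC1241.

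Transcripts of the cascade itself gave few differences. Of 27 tested members from the RAS genes to the ERK substrates, 2 were higher and 2 lower at an unadjusted p below 0.05, numbers near the shares of 6.21% and 9.14% over all genes, and the median log2 fold change was -0.18. *RPS6KA2*, a kinase activated by ERK, had a median of 825 normalized counts in the carriers and 389 in the others (log2 fold change 1.02, standard error 0.31, adjusted p = 0.207 in edgeR), and all 8 carriers lay above the median of the others. *HRAS* was the other higher gene (0.70, standard error 0.33). *MAP3K8*, a kinase that activates MEK, was lower (-0.72, standard error 0.25), as was *SOS1* (-0.76), which loads RAS with GTP. For both, the highest of the 24 tumors was TC538, the library with the lowest size factor.

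Levels of 4 of the genes that carry variants were read in their own carriers, where a variant called from RNA depends on how much of the transcript was sequenced. *ERBB2*, the receptor gene, had 17837 in TC2011 (rank 2) and 12656 in TC1744 (rank 6), and 4711 to 17837 over all carriers against 3219 to 32103 over the others. *ARAF* had 1003 in its carrier TC1218 (rank 20) and *NF1* 4339 in TC22 (rank 19). *TNFRSF1A*, the receptor for tumor necrosis factor, had 2383 in TC1123 (rank 20), below the medians of 4806 in the carriers and 4444 in the others. Between the groups none of the 4 was called: the log2 fold changes were -0.51 for *NF1* (standard error 0.30), 0.49 for *ARAF* (0.26), 0.18 for *TNFRSF1A* (0.34) and 0.05 for *ERBB2* (0.32). *ERBB2* turned negative with TC1088 added, with endothelial level as a covariate and with some tumors left out, and *TNFRSF1A* with that covariate.

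Of 22 tested receptor tyrosine kinases, 6 were higher and 1 lower at an unadjusted p below 0.05, where 6.21% of all genes were higher and 9.14% lower, and none was called at an adjusted p below 0.05. *KDR*, *FLT1* and *FLT4* are receptors for vascular endothelial growth factors, and *PDGFRB* marks the cells around vessels. *KDR* had normalized counts of 3271, 6473 and 8338 in the carriers and 902, 2240 and 7042 in the others, with all 8 carriers above the median of the others (log2 fold change 1.09, standard error 0.30, adjusted p = 0.179 in edgeR). *FLT4* had 1.02, *PDGFRB* 0.94 and *FLT1* 0.85. *EGFR* (0.88) and *NTRK3* (1.19) were highest in TC1241, and *NTRK3* was 0.50 without it.

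*ERBB3*, a partner of ERBB2 with a weak kinase, was the lower one. It had 111, 189 and 807 normalized counts in the carriers and 143, 971 and 3574 in the others, and 0 of 8 carriers reached the median of the others (log2 fold change -2.24, standard error 0.67, adjusted p = 0.205 in edgeR and 0.0237 in DESeq2). Its ligand *NRG1* had a median of 88.1 in the carriers and 236 in the others (log2 fold change -1.34, standard error 0.61, unadjusted p = 0.0364 in edgeR). Within the carriers *NRG1* ran from 10.4 in TC2011 to 300.5 in TC1241. *PDGFB*, a ligand made by endothelium, was the single ligand that was higher at an unadjusted p below 0.05 of 19 tested, again near the share over all genes (1.14, standard error 0.38).

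Endothelial markers stood higher in the carriers as well. The summed normalized counts of *PECAM1*, *CDH5*, *VWF* and *TEK* ran from 5585 to 21239 with a median of 17243 in the carriers and from 2744 to 15884 with a median of 7441 in the others. All 4 markers were higher at an unadjusted p below 0.05, against 6.21% of all genes, with log2 fold changes of 1.07 for *CDH5*, 1.00 for *VWF*, 0.94 for *TEK* and 0.77 for *PECAM1*, and none was called. TC1241 had the lowest endothelial sum of the carriers. With the mean endothelial marker level as a covariate, a setting chosen after the data were seen, the number of genes at an unadjusted p below 0.05 dropped from 2764 to 1086 and the genes called higher from 12 to 1 (*EDN3*). In that fit the log2 fold change was 1.13 for *SPRY4* (standard error 0.32), 1.44 for *DUSP6* (0.35) and 1.30 for *DUSP4* (0.47), but 0.44 for *KDR*. The part of vessel content in these differences was not tested beyond this fit.

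The remaining marker lists gave little. Of smooth muscle markers, *ACTA2* was higher at an unadjusted p below 0.05 (1.09) and *TAGLN* was 0.68. The C cell markers *CHGB* (1.98) and *SCG2* (2.45) were higher at that limit through TC22, which held 9031 summed C cell counts against a carrier median of 403, and without TC22 they were -0.09 and -0.60. No member of the T cell, B and plasma cell, macrophage, fibroblast, skeletal muscle, adipocyte, erythroid, parathyroid or thyroid follicular lists reached an unadjusted p below 0.05 in either direction. Over all genes 6.21% were higher and 9.14% lower at that limit, and all of these marker lists are short. The smallest p-values in these lists belonged to *CD2* (-0.82) and *CD5* (0.30), *CD79A* (0.38) and *JCHAIN* (-0.16), *CSF1R* (0.40) and *CD163* (-0.67), *LUM* (-1.38) and *DCN* (-0.93), *DES* (-0.67) and *ACTA1* (0.78), *LEP* (-0.98) and *PLIN1* (-0.51), *ALAS2* (-0.39), *CASR* (0.56), and *TG* (-1.66) and *TSHR* (-0.35).

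**Figure D3:**
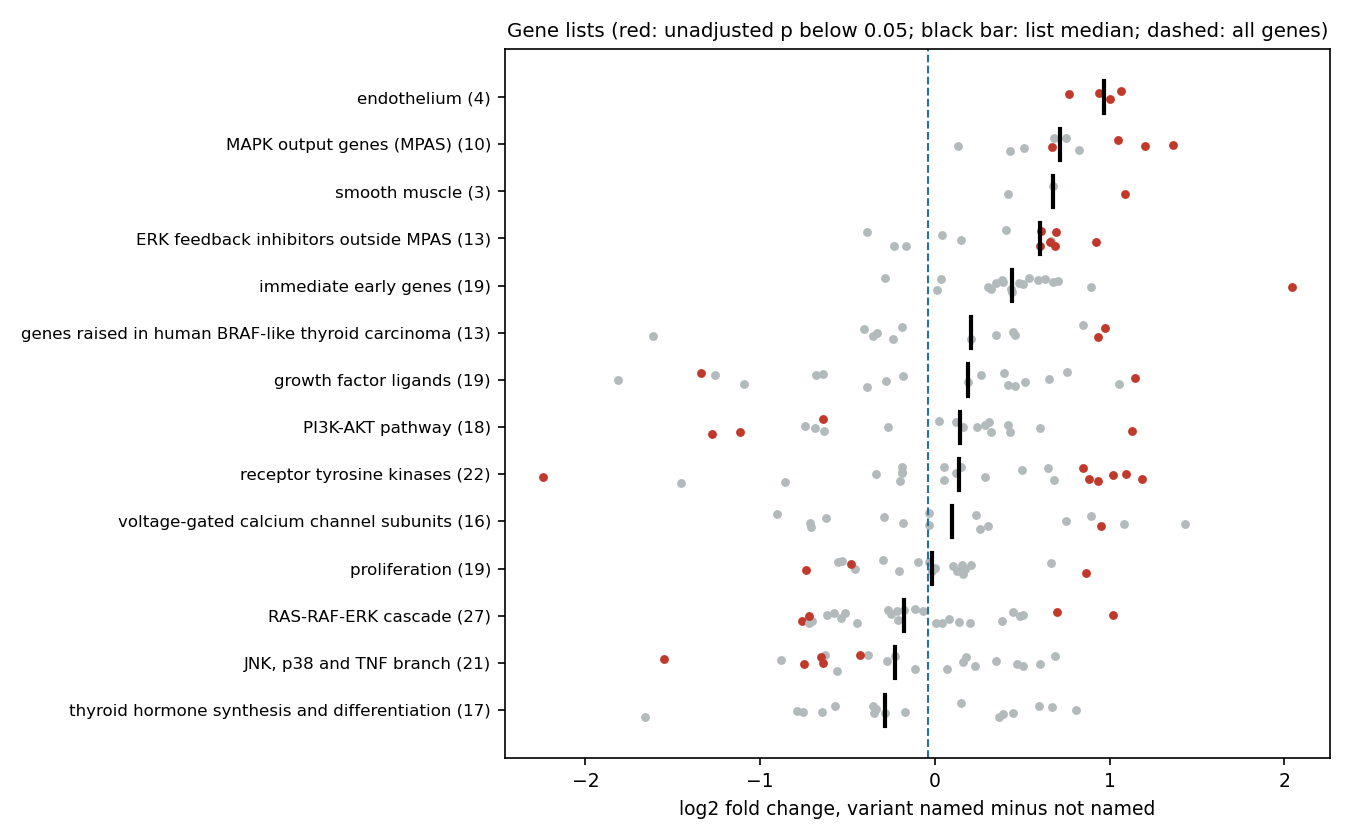
Log2 fold change between FTC with and without a named variant (horizontal axis) for each tested member of 12 pathway lists, the endothelial list and the smooth muscle list; red points have an unadjusted p below 0.05 in edgeR, black bars are list medians, and the dashed line is the median of all genes at -0.04. The endothelial markers and MAPK output genes have the highest list medians, 0.97 and 0.72.

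The stress-activated branch, which runs from the tumor necrosis factor receptor to JNK and p38, had 0 of 21 tested genes higher and 5 lower at an unadjusted p below 0.05, where the shares over all genes were 6.21% and 9.14%, with a median log2 fold change of -0.23. *MAPK8*, which encodes JNK1, had -1.55 (standard error 0.53), but TC538 alone held 24496 normalized counts where the median of the others was 1657, and without it the value was -0.77. *MAP3K7*, the kinase TAK1, had -0.64 (standard error 0.26), and *GADD45A*, *MAP3K1* and *MAPK14* were the other 3. *MAP3K7* and *MAP3K1* were also highest of the 24 tumors in TC538. In the PI3K-AKT pathway 1 of 18 genes was higher at that limit, near the 6.21% of all genes, and 3 were lower, against 9.14%: *INPP4B*, a lipid phosphatase, had 1.13, and *RICTOR*, *PIK3CA* and *RPS6KB1* had -1.27, -1.12 and -0.64. Each of these 3 lower genes had its highest value of the 24 tumors in TC538. Of 16 tested calcium channel subunit genes, *CACNA2D2* alone was higher at that limit, 1 of 16 again being near 6.21% (0.95, standard error 0.41). Its lowest carrier was TC67, with 922 normalized counts against 5852 or more in the other carriers. *CACNA2D3* had 1.43, which became -0.34 without TC1241.

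Thyroid differentiation and proliferation genes gave few differences. Of 17 genes of thyroid hormone synthesis and differentiation, 0 reached an unadjusted p below 0.05 in either direction, with a median log2 fold change of -0.29. Over all genes 6.21% were higher and 9.14% lower at that limit, and for so short a list 0 is not far from those shares. *TG*, the thyroglobulin gene, ran from 8188 to 1015520 normalized counts in the carriers and from 11286 to 6595770 in the others, and *THRA*, a thyroid hormone receptor, had 0.81 (standard error 0.42), with all 8 carriers above the median of the others. Genes raised in human BRAF-like thyroid carcinoma had 2 of 13 members higher at that limit, against 6.21% of all genes: *LGALS3*, the galectin-3 gene, with a median of 900 in the carriers and 331 in the others (log2 fold change 0.97, standard error 0.27, all 8 carriers above the median of the others), and *TIMP1*, whose 0.94 was 0.28 without TC1241. Among 19 proliferation genes, with shares near those of all genes, the median was -0.02, *TOP2A* (-0.74) and *AURKA* (-0.48) were lower, and *CDC20* (0.86) was higher through TC1979, being 0.27 without it.

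Across the whole transcriptome, edgeR called 12 of 18009 genes higher in the carriers (0.0666%) and 0 lower at an adjusted p below 0.05, with 2764 genes at an unadjusted p below 0.05. DESeq2 on the same counts called 83 higher (0.461%) and 65 lower (0.361%), and 8 of the 12 were among its 83. No gene had groups that did not overlap. Of the 12 genes 11 are described here, of which 8 had their highest value of the 24 tumors in TC1241 and 7 had medians under 100 normalized counts in both groups. The 4 above that limit were named by the rule on size, and the other 7 are named here after their values were seen. For *EDN3*, *P2RX3*, *HOXB9*, *SHISA6*, ENSCAFG00000011251 and ENSCAFG00000049277, fewer than 5 of the 16 others reached 10 counts. These genes therefore passed the count filter only with the counts of carriers.

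*P2RX3* (ENSCAFG00000007910), an ATP-gated channel known from sensory neurons, did not depend on TC1241. It had 3.81, 23.9 and 90.1 normalized counts in the carriers and 1.01, 4.74 and 14.3 in the others, and 6 of 8 carriers were above every other tumor. Its log2 fold change was 2.51 (standard error 0.41, adjusted p = 0.0138 in edgeR), it was called in all 24 fits that left out 1 tumor, and without TC1241 it was 2.595. Those fits share the count filter, which the gene passed through the carriers. Of the others, only TC2110 and TC902 reached 10 counts, with 10 and 11, so these fits do not test the choice of filter. Over its alternatives the adjusted p ran from 0.000124 to 0.249.

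*NGFR* (ENSCAFG00000016934), the low-affinity nerve growth factor receptor and a member of the tumor necrosis factor receptor family, had 43.7, 114 and 382 normalized counts in the carriers and 12.9, 34.01 and 79.7 in the others. All 8 carriers lay above the median of the others, TC1979 was the highest and TC1123 the lowest. The log2 fold change was 1.88 (standard error 0.36, adjusted p = 0.0395 in edgeR and 0.00104 in DESeq2) and 1.85 without TC1241, where the adjusted p was 0.132. Without TC1979 it was 1.497 (adjusted p = 0.106 in edgeR).

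*HOXB9*, a homeobox gene of the HOXB cluster, was split within the carriers. TC2011, TC1218 and TC22 had 391.6, 285 and 166 normalized counts, the other 5 carriers at most 17.7, and the tumors without a named variant at most 24.0 (log2 fold change 4.50, standard error 0.85, adjusted p = 0.0395 in edgeR). Neighbouring cluster genes, looked at after this was seen and not called by edgeR, had the same 3 carriers on top: *HOXB4* with 1113, 278 and 378, *HOXB5* with 1068, 423 and 410, and *HOXB7* with 1648, 618 and 786. Among the 16 others TC640 was the highest for each, with 192, 261 and 287. DESeq2 called these 4 HOXB genes, and also *HOXB6* (3.14, adjusted p = 0.0322 in DESeq2) and *HOXB3* (2.36, adjusted p = 0.04999 in DESeq2). The log2 fold changes in edgeR were 2.99, 2.88 and 3.90 for *HOXB4*, *HOXB5* and *HOXB7*.

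The remaining 8 genes were led by TC1241. *EDN3* (ENSCAFG00000012245), a peptide ligand of endothelin receptors, had 1078 normalized counts in TC1241, 6.67 to 21.8 in the other carriers and 0 to 10.5 in the others (log2 fold change 4.96, standard error 0.79, adjusted p = 0.0138 in edgeR). Without TC1241 it was 1.56 with an adjusted p of 0.224. *PROX1*, a homeobox gene of lymphatic endothelium, had 7624 in TC1241 and at most 171 in any other tumor of the comparison, and *VIT*, a matrix protein gene, had 8364 and at most 531. *SLC1A2*, a glutamate transporter gene, had 3488 in TC1241 and at most 39.4 elsewhere, and its log2 fold change of 5.66 was 0.07 without that tumor. *SHISA6*, which binds glutamate receptors, had 1919 in TC1241 and 398 in TC67. *DNAH1*, a dynein heavy chain gene, had 1253 in TC1241, and 4 carriers were above every tumor without a named variant. ENSCAFG00000011251 and ENSCAFG00000049277, which carry no symbol in the table, had 576 and 116 in TC1241. For ENSCAFG00000011251 TC22 was rank 2 with 475 raw counts, and the tumors without a named variant had at most 17.1 normalized counts. Its log2 fold change of 4.30 was 3.21 at the lowest with 1 tumor left out (adjusted p = 0.143 in edgeR).

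**Figure D4:**
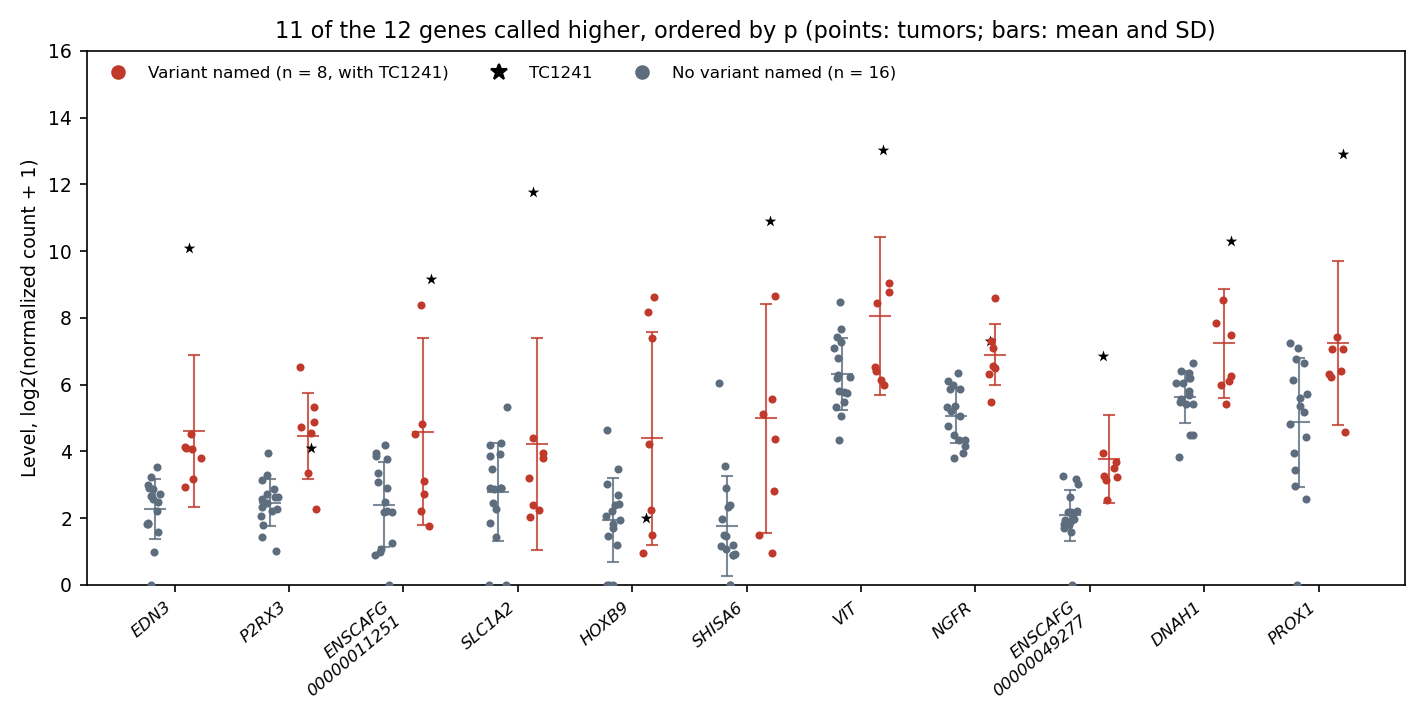
Levels, log2(normalized count + 1), of 11 of the 12 genes called higher in FTC with a named variant, ordered by p; red points are carriers, the black star is TC1241, grey points are tumors without a named variant, and bars are mean and SD. TC1241 is the highest of the 24 tumors in 8 of the 11 genes, and not in *P2RX3*, *NGFR* or *HOXB9*.

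The C cell sum of TC1241 was 93.5 normalized counts and its *CALCA* count was 0. It also had the lowest thyroid follicular (28224), smooth muscle (3850) and T cell (201) sums of the carriers.

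No gene was called lower by edgeR. Among genes lower in the carriers, those with a symbol and a median of at least 100 normalized counts in the others were ordered by p, and the first 5 are given, none of them called. *PLOD2*, a collagen lysyl hydroxylase gene, had 131, 369 and 654 in the carriers and 357, 1341 and 4965 in the others, and 0 of 8 carriers reached the median of the others (log2 fold change -1.89, standard error 0.43, adjusted p = 0.0825 in edgeR). *NT5E*, which makes adenosine from AMP, had medians of 20.3 and 102 (log2 fold change -3.37, standard error 0.84, adjusted p = 0.119 in edgeR). *TMEM144* had medians of 88.01 and 292, *SFR1*, a DNA repair gene, 70.2 and 132, and *TBL1XR1*, a corepressor subunit gene, 1427 and 2538. *PLOD2* and *SFR1* were highest of the 24 tumors in TC538, the library with the lowest size factor. DESeq2 called all 5 lower, with adjusted p from 0.00284 to 0.0124.

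How many genes were called depended on the tumors and the setting. Without TC1241 edgeR called 1 gene higher (*P2RX3*), and 14 of the 16 fits that left out a tumor without a named variant called 2 (*EDN3* and *P2RX3* in each), while the fit without TC1213 called 64 higher and 2 lower. The histologic pattern or the differentiation grade as a covariate gave 0 calls in both directions, with 2647 and 2849 genes at an unadjusted p below 0.05. With TC1088 added, 38 genes were called higher (0.21%) and 0 lower, all 12 among them, and *DUSP6* then had a log2 fold change of 2.10 (adjusted p = 0.0291 in edgeR). With the 5 carriers listed above, 25 were called higher (0.141%) and 1 lower (0.00563%), and 10 of the 12 were among the 25. In DESeq2 without TC1241, a setting chosen after the data were seen, 63 genes were called higher and 54 lower, 6 of the 12 among the 63.

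**Figure D5:**
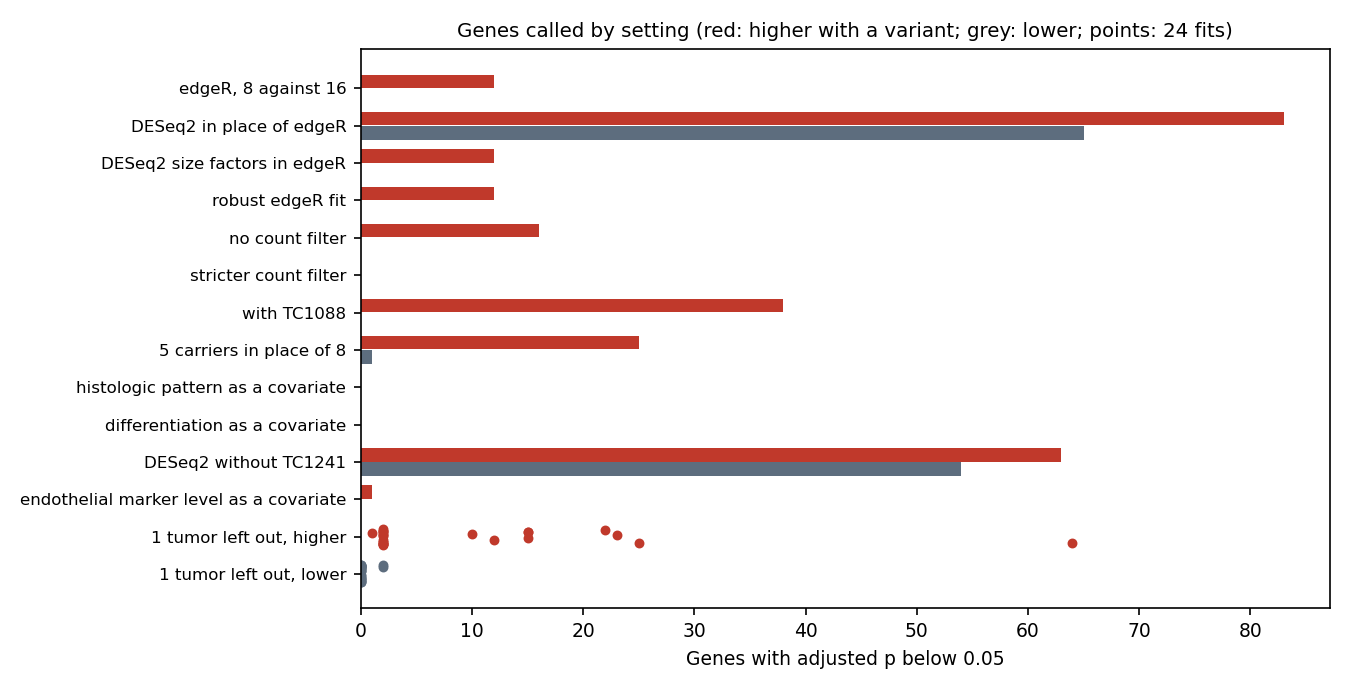
Number of genes with an adjusted p below 0.05 (horizontal axis) in each setting, higher in carriers in red and lower in grey; points in the bottom rows are the 24 fits that leave out 1 tumor. The count of higher genes runs from 0 to 83 and exceeds 60 in DESeq2, in DESeq2 without TC1241 and in 1 fit without a tumor (TC1213).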

How the data were processed

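Total RNA of frozen canine thyroid carcinomas was sequenced after ribosomal depletion, and the authors deposited raw gene counts, made after alignment with STAR to CanFam3.1 with Ensembl annotation. The strand setting of the counting is not given in the sources used here, so antisense partners cannot be told apart. The members of both groups and the gene lists (12 of pathways, 13 of markers) were chosen with earlier results of these data known. Every count column mapped to 1 tumor by its name, and no 2 tumors had identical counts. Genes that reached 10 counts in 5 or more of 24 tumors were fitted with edgeR 4.0.16 (R 4.3.3, TMM scaling, quasi-likelihood test, Benjamini-Hochberg adjustment); standard errors were the log2 fold change divided by the square root of F. DESeq2 1.42.0 was an alternative and gave no adjusted p as NA. Median-of-ratios size factors, from 15611 genes counted in all 30 tumors, scaled the normalized counts. Levels were log2(normalized count + 1), compared by two-sided exact permutation in Python 3.11.15, where p is the share of all splits with an absolute difference at least as large; doubling the smaller tail instead gave 3.81e-05 for *SPRY4*, 0.00715 for *DUSP6* and 0.188 for *ETV5*. Named genes were the MPAS genes, 4 variant-bearing genes, the 10 largest called changes per direction with a symbol and a median of at least 100 in the higher group (filled to 5 by p), and the 2 smallest p-values of each list. Tumors are separate dogs. The edgeR test and the permutation test were tested on simulated data, and DESeq2 was not. Alternatives were DESeq2, other scalings, filters and pseudocounts, covariates, other carrier sets and leaving out each tumor; DESeq2 without TC1241 and the endothelial covariate were chosen after seeing the data. Coordinates and sequences were not used. Results of some genes are not reported here, and those genes were left out of the lists.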

Additional observations from a re-analysis of the deposited data

Results flagged for a closer look

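Among 98 genes examined, 1 of the 8 carriers stood apart from the other 7 in 11, with a gap to its neighbour, as a share of the group's range on the level scale, past Dixon's 95% limit, which chance passes in about 1 of 20 groups. That rate does not hold for the genes called higher by edgeR, which are among the 98, since 11 of the 12 were no longer called without TC1241. *EDN3*, *SLC1A2*, ENSCAFG00000049277, *PROX1* and *VIT* are among those 11. The rate does not hold either for *CACNA2D2*, *CACNA2D3*, *TOP2A*, *ACTA1*, *PLOD2* and *EPAS1*, picked by small p-values or after their values were seen. TC1241 stood apart in 7 of the 11 genes with a carrier apart. It was high for *EDN3* (gap 0.780 of the range), *SLC1A2* (0.757), ENSCAFG00000049277 (0.671), *PROX1* (0.657), *CACNA2D3* (0.604) and *VIT* (0.565), and low for the muscle gene *ACTA1* (0.532), with 4.02 normalized counts.

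TC67, which carries a calcium channel variant, was low for *CACNA2D2* (0.681) with 922 normalized counts, and low for *EPAS1* (0.638), a hypoxia-inducible factor gene rich in endothelium, with 1613. TC1979 was low for *PLOD2* (0.5262) with 131, and TC1744 was low for *TOP2A* (0.528) with 130.

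Outside the comparison, 6 values of the marker genes lay above all 16 FTC without a named variant. TC1088, the FTC with an *FGFR2* fusion, had 15529 normalized counts of *DUSP6* and 6496 of *ETV5*, the highest of the 30 tumors for both. Of the 5 tumors that belong to neither group, which the study classes as medullary, TC1601 had 6644 of *DUSP6* and 675 of *SPRY4*, TC1936 had 610 of *SPRY4*, and TC1020 had 1997 of *ETV5*.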

How the results depend on the processing

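The 12 genes called higher became 83 with DESeq2, 63 with DESeq2 without TC1241, 38 with TC1088 added, 25 with 5 carriers, 1 with the endothelial covariate, and 0 with the stricter count filter (10 counts in 12 tumors, where edgeR had 2694 genes at an unadjusted p below 0.05), the pattern covariate or the differentiation covariate. Leaving out 1 tumor at a time gave 1 to 64, and fits without TC640, TC67 and TC1744 gave 25, 23 and 22. Other size factors, the robust fit, no count filter and a fold change limit kept it within 1.5 times. The 0 genes called lower became 65 with DESeq2, 54 with DESeq2 without TC1241 and 1 with 5 carriers, and 0 to 2 without 1 tumor. DESeq2 by its construction replaces counts far outside their group before its fit, which bears on the genes led by TC1241. Under the stricter filter *EDN3*, *P2RX3*, *HOXB9*, *SHISA6*, *SLC1A2*, ENSCAFG00000011251 and ENSCAFG00000049277 did not reach 10 counts in 12 tumors and dropped out of the test. *PROX1*, *VIT*, *DNAH1* and *NGFR* stayed in it, each with an adjusted p of 0.0883 in edgeR. For these, and for the fits with a covariate and with 5 carriers, the cause was not tested.

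The level differences of *SPRY4*, *DUSP6* and *ETV5* kept their direction and their side of 0.05 in all 28 alternatives each. Without 1 tumor they ran from 1.40 to 1.60, 0.75 to 1.19 and 0.47 to 0.80. The MPAS difference of 2.70 ran from 2.47 to 3.04, and it was 0.95 with median-centred levels not divided by the SD, a different scale.

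Of single genes, none of them called by edgeR in the 8 against 16 comparison, the log2 fold change changed sign with TC1088 added for *EPHA4* (-0.0325), *ERBB2* (-0.0878) and *NRG1* (1.25), with 5 carriers for *EPHA4* (-0.30), *CASR* (-0.97) and *CD5* (-0.0348), and with DESeq2 for *CACNA2D3* (-0.36) and *PLIN1* (1.29). DESeq2 without TC1241 reversed *EPHA4* (-0.13), *CACNA2D3* (-0.35), *SCG2* (-0.44) and *PLIN1* (1.29), and called *CASR* higher (2.95, adjusted p = 0.0115 in DESeq2). The highest *CASR* of the 24 tumors was nevertheless in TC2288, which has no named variant, with TC1979 at rank 2 and TC22 at rank 3. The pattern covariate reversed *JCHAIN* (0.0538). The endothelial covariate reversed *ERBB2* (-0.0397), *TNFRSF1A* (-0.0112), *CASR* (-1.08) and *TAGLN* (-0.14). Leaving out 1 tumor at a time gave ranges that crossed 0 for *EPHA4* (-0.14 to 0.31), *ERBB2* (-0.0758 to 0.29), *CACNA2D3* (-0.34 to 1.70), *CHGB* (-0.0903 to 2.17), *SCG2* (-0.60 to 3.32), *CASR* (-1.16 to 2.77), *JCHAIN* (-0.49 to 0.18) and *PLIN1* (-0.89 to 1.28). The endothelial covariate was not applied to the 4 genes it is made of. No paired analysis was possible because each tumor came from a different dog and the replicate numbers only name tumors. Depth limits the genes under about 10 normalized counts.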

Other observations

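Of the genes that DESeq2 called and edgeR did not, *EPAS1*, *EGFL7* and *TK1* were picked after their values were seen. *EPAS1* had medians of 5617 normalized counts in the carriers and 1673 in the others (log2 fold change 1.49, standard error 0.32, adjusted p = 0.0643 in edgeR), and 0.75 with the endothelial covariate. *EGFL7*, a gene secreted by endothelium, had medians of 1794 and 590, with all 8 carriers above the median of the others (1.52, and 0.65 with the covariate). *TK1*, the thymidine kinase of dividing cells, had medians of 585 and 199 and its highest value, 2977, in TC1241 (1.91, and 1.29 without TC1241), while *MKI67* had medians of 449 and 554. Without TC1241, *TK1* was not called by DESeq2 either (adjusted p = 0.0716 in DESeq2). Other genes linked to dividing cells went the other way, as DESeq2 called *HELLS* (-1.24), *KIF11* (-1.05) and *ATAD5* (-1.26) lower in the carriers. They too were not called by DESeq2 without TC1241 (adjusted p = 0.0538, 0.0818 and 0.0819 in DESeq2).

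TC1088 had 129 summed normalized counts of the 3 thyroid follicular markers and 1 count of *TSHR*, so follicular identity was hardly visible in its transcripts. *FGFR2* was 4498, rank 2 of the 30 tumors, and *NRG1* was 4434, against at most 663 in the other FTC. *SPRY4* was 113, rank 25 of 30, although *DUSP6* and *ETV5* ranked first. Its endothelial sum of 2650 was below all 24 FTC of the comparison. Its MPAS, computed over 25 tumors, was 2.41 and ranked 4.

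In the 5 tumors classed as medullary, *PROX1* ran from 1804 to 5540 normalized counts, below the 7624 of TC1241 and above all other FTC. *HOXB9* ran from 120 to 360 in these 5, a range that holds the values of TC1218 and TC22, with TC2011 above it. *SHISA6* and *VIT* were at most 11.2 and 94.6 there, while TC1241 had 1919 and 8364.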
